A study of Homo sapiens with 4 samples.

Results

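The collagen chains and the proteins that fold, trim and cross-link them were followed in KYSE170 cells, an established line derived from a human oesophageal squamous carcinoma, after exposure to EDHB. The set was chosen by name: protein-coding genes with a symbol of COL, a number, A and a number, together with the lysyl oxidases LOX and LOXL1 to LOXL4, the collagen chaperone SERPINH1, the propeptide protease BMP1 and its enhancer PCOLCE. Of 52 RefSeq genes that fit, 51 had a probe set annotated to exactly 1 gene, 43 of them collagen chains and 8 others, among 19751 genes measured. COL17A1 was not analysed here. The 51 genes were read by 132 probe sets, 12 genes by 1 probe set and 39 by several. No filter on dim values was applied to them, so none was removed.

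Cultures of 1 line were given ethyl-3,4-dihydroxybenzoate (EDHB) at 50 µg/ml for 12 h (2 arrays) or were left untreated (2 arrays), in serum-containing medium in both groups. Total RNA was hybridised to Affymetrix arrays, and a level is the log2 of the linear RMA intensity of a probe set. The labels do not state whether replicates came from separate cultures. The p-values therefore describe only how these arrays scatter, and the small number of arrays limits the precision. An exact permutation test of 2 arrays against 2 cannot go below p = 0.333, so tests come from limma fitted on all 19751 genes. The replicate 2 columns of the table stood in another row order than its identifiers. The order was rebuilt from the untreated levels for 54463 of 54613 probe sets, all 132 of the collagen set included. Of the replicate 2 values changed at least 2-fold, 93 of 148 higher and 22 of 45 lower ones were restored. Shares over all genes therefore lack part of the probe sets with wide changes. The log2 change within replicate 1, which does not need this step, is given beside that within replicate 2.

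Collagens are triple helices of chains with a glycine in each repeat of their sequence. In the endoplasmic reticulum, prolyl 4-hydroxylases hydroxylate prolines of the chains, which makes the helix stable at body temperature, and lysyl hydroxylases prepare lysines for cross-linking. These hydroxylases need iron and 2-oxoglutarate, as do the prolyl hydroxylases that mark hypoxia-inducible factors (HIF) for degradation, and EDHB is known as an inhibitor of this enzyme class. SERPINH1, also called HSP47, binds the folded helix in the endoplasmic reticulum. BMP1 cuts the C-terminal propeptide off procollagens, PCOLCE enhances this cut, and the lysyl oxidases, copper enzymes outside the cell, oxidise lysines so that chains cross-link. LOX is known as a HIF target. Stratified epithelia and their tumours make collagens IV and VII of the basement membrane zone, whereas fibrillar collagens I and III come mainly from fibroblasts.

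Epithelial markers were read in all 4 arrays. Of 8 epithelial markers, 5 had a probe set of 1 gene. EPCAM, CDH1, DSP and KRT5 lay at or above the median probe set (log2 level 4.54), with KRT14 below it. Of 9 fibroblast or mesenchymal markers, VIM, PDGFRB, THY1 and TWIST1 lay at or above the median probe set, and PDGFRA, DCN, LUM, FAP and ACTA2 below it. The summed intensity of the 5 epithelial markers was 13.09 and 13.10 in EDHB arrays, against 12.95 and 12.96 in untreated arrays, as log2 values. That of the 9 mesenchymal markers was 7.76 and 7.82 in EDHB arrays, against 7.77 and 7.77 in untreated arrays, as log2 values. Log2 changes of these 9 ran from -0.24 to 0.28, and 0 passed in limma, adjusted or unadjusted. Endothelial VWF and CDH5 lay below the median probe set, as did the leukocyte marker PTPRC, and PECAM1 lay above it. Of all these markers CDH1 and PTPRC had an unadjusted p under 0.05, both with higher EDHB levels. The part of other cell types or of epithelial RNA content in the collagen values was not tested.

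Promoter sequences are shown for the genes on which the comparison turned and for the head-to-head pair COL4A1 and COL4A2. They are RefSeq sequences of build GRCh38.p14, written 5′ to 3′ on the strand of the gene and ending at the base before its annotated start. Capitals mark ACGTG or GCGTG on either strand, the core of the hypoxia response element. The same motifs can overlap each other, and each start was counted once.

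LOX, chr5:122078260-122078509, minus strand, a lysyl oxidase called higher with EDHB in the trend fit given below: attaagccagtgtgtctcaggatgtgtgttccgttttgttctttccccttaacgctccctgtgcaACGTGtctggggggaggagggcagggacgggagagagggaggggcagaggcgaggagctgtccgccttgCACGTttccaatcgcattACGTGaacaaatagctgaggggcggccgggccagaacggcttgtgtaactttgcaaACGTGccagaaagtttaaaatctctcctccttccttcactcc
LOXL3, chr2:74553943-74554192, minus strand, a lysyl oxidase called lower with EDHB in that fit: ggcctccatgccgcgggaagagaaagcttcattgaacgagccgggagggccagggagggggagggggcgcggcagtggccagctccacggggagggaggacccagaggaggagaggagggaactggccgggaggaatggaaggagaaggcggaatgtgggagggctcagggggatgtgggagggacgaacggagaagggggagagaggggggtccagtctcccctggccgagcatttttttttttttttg
COL12A1, chr6:75206054-75206303, minus strand, the collagen chain with the smallest unadjusted p: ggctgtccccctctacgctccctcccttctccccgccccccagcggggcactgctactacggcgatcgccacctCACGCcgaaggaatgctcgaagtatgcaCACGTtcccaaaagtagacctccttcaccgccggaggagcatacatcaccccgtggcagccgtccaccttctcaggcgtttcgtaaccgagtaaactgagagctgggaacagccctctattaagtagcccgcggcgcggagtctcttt
COL4A1 and COL4A2, chr13:110307158-110307283, minus strand, the 126 bases between their starts: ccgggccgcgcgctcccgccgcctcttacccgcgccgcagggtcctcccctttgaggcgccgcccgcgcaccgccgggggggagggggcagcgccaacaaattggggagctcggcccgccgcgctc

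The LOX window held 4 such motifs within 250 bases, COL12A1 held 2 and LOXL3 held 0. From 250 bases before to 50 after the start, at least 1 motif was found for 48.4% of 27305 RefSeq genes and for 17 of the 37 collagen set genes with a window, so a single match is common. At least 4 were found in 4.45% of all windows and, among the 37, in that of LOX. LOXL2, COL9A3 and COL20A1 had no window. Among collagen set genes with an unadjusted limma p under 0.05, only 1 of 4 higher ones (LOX) and 3 of 5 lower ones could be searched. In these windows COL15A1 and COL6A6, neither of them called, held 3 each. P4HA1 and P4HA2, which rose with the trend as given below, held 1 and 0. A match is a run of letters and was not tested for binding, and a link between the number of matches and the change was not tested. The starts of COL4A1 and COL4A2 lie 127 bases apart on opposite strands, those of COL4A5 and COL4A6 380 and those of COL4A3 and COL4A4 419.

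The collagen set had a small median log2 change, and 25 of its genes had both group means below the median probe set. The widest changes were those of LOXL2 (0.67), LOXL3 (-0.57), LOX (0.53) and COL9A3 (0.53). LOXL1 had a mean change of -0.01, but -0.17 within replicate 1 and 0.15 within replicate 2. LOXL4, below the median probe set, gave 0.01 on its brightest probe set and 0.20 on the other. Of the 51 genes, 0 passed an adjusted p under 0.05 in limma, where 2 of all 19751 genes did (0.0101%). When the prior variance of limma was allowed to follow intensity (the trend), LOX rose and LOXL3 fell, 2 of 51, against 1.9% of all genes (375, of which 211 were higher and 164 lower). At an unadjusted p under 0.05, 9 of the 51 stood out, 4 higher (background 8.81%) and 5 lower (background 7.98%). Their 17.6% stood beside 16.8% of all genes, and this share is no result about the collagen set. The median log2 change over the 51 was 0.01 (0.00 within replicate 1 and 0.04 within replicate 2), against -0.001 over all genes. Both EDHB arrays lay above both untreated arrays for 10 of 51 (background 23.2%) and below them for 12 of 51 (background 22.5%), so that groups did not overlap for 22 of 51 (background 45.8%).

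Of the 51 genes, 26 had a mean level at or above the median probe set in at least 1 group. A gene could enter these 26 through the group in which it was high. A count or median over bright members therefore cannot be read as a shift of the set, and is given only among the alternatives at the end. Their values follow by role.

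**Figure D1:**
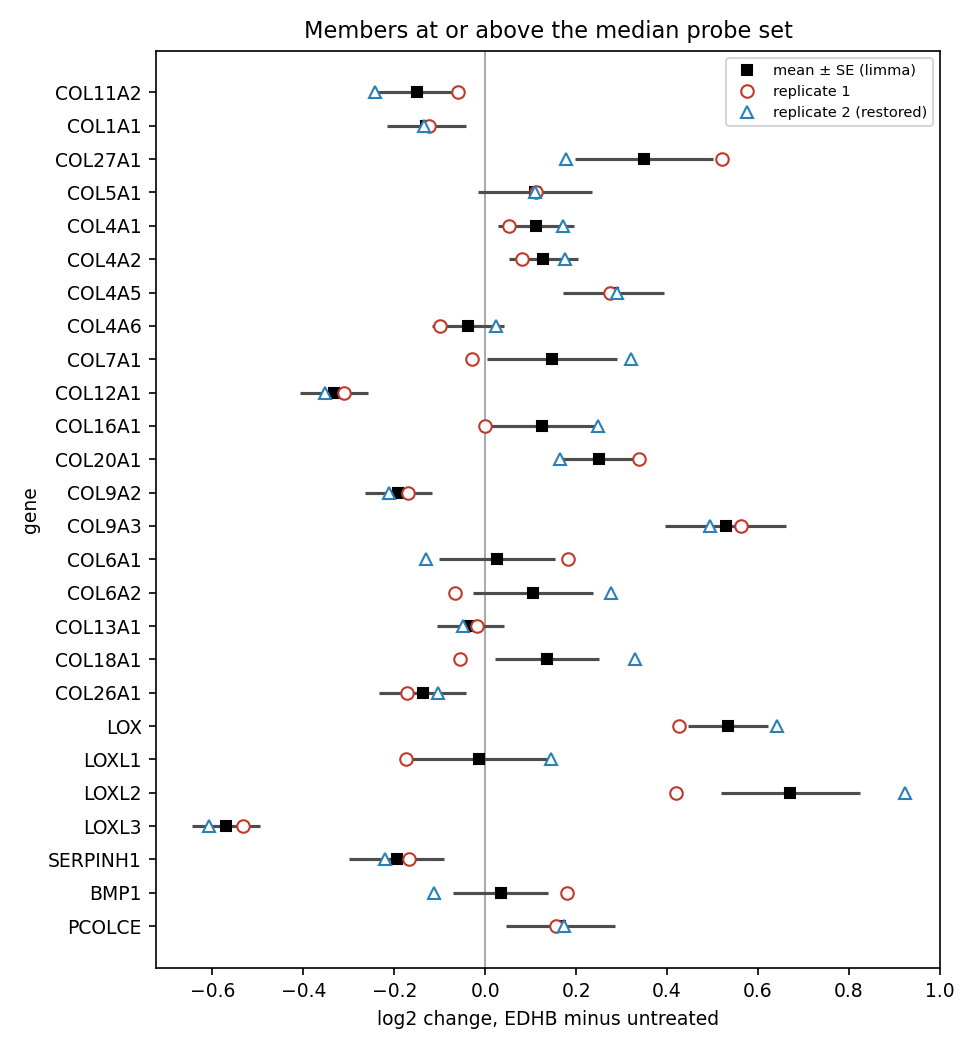
Log2 change (EDHB minus untreated) of the 26 genes at or above the median probe set. Black squares are means with the standard error from limma, red circles the change within replicate 1 and blue triangles that within replicate 2 after the row order was restored. LOX at 0.53, COL9A3 at 0.53 and LOXL2 at 0.67 lie to the right and LOXL3 at -0.57 to the left.

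LOX, which starts the cross-linking of collagen and elastin, had log2 levels of 7.89 and 8.02 in EDHB arrays, against 7.46 and 7.38 in untreated arrays. The groups did not overlap, and the higher untreated array lay well below the lower EDHB array. The difference was 0.53 ± 0.09 (SE, n = 2 and 2), 1.45-fold, with limma adjusted p = 0.123 and 0.0438 with the trend. Within replicates 1 and 2 it was 0.43 and 0.64. The other probe sets of LOX were higher by 0.42 and 0.20, so all 3 had the same sign in both replicates. Its promoter is the sequence above with 4 motif matches.

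LOXL2, an oxidase that acts on collagen IV, had log2 levels of 6.14 and 6.55 in EDHB arrays, against 5.72 and 5.63 in untreated arrays. Both EDHB arrays were above both untreated ones, with replicate 2 higher than replicate 1 within EDHB. The difference of 0.67 ± 0.15 (SE), 1.59-fold, was the only one in the set past 1.5-fold, a size that 1.7% of all genes reached. It did not pass (limma adjusted p = 0.158, and 0.0811 with the trend). It was 0.42 within replicate 1 and 0.92 within replicate 2. The other 3 probe sets of LOXL2 gave only 0.15, 0.15 and -0.10, and those with mean levels of 4.14 and 4.29 lay below the median probe set.

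LOXL3, a family member required for palate and cartilage development in mice, went the opposite way. Its log2 levels were 6.05 and 5.995 in EDHB arrays, against 6.58 and 6.60 in untreated arrays, with a gap between groups several times the gap within them. The difference was -0.57 ± 0.08 (SE), a fold of 0.674, with limma adjusted p = 0.104 and 0.0402 with the trend, and it was -0.53 and -0.61 within replicates 1 and 2. This was read by 1 probe set, whose replicate 2 value was restored with a posterior of 0.993, the lowest in the collagen set. The restoring step matched untreated levels, so the closeness of the untreated arrays is no separate support.

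LOXL1, which cross-links elastin, had log2 levels of 5.50 and 5.40 in EDHB arrays, against 5.68 and 5.25 in untreated arrays, and the groups overlapped. LOXL4 had 4.37 and 4.40 in EDHB arrays, against 4.42 and 4.32 in untreated arrays, below the median probe set and overlapping. Its second probe set, also below the median probe set, had 4.25 and 4.23 in EDHB arrays, against 4.09 and 3.99 in untreated arrays. There the groups were apart, by 0.20 ± 0.08 (SE), so the probe sets of LOXL4 differed, and neither passed an adjusted p in limma. Without any 1 of the 4 arrays, the change ran from 0.47 to 0.60 for LOX and from -0.60 to -0.54 for LOXL3. With the replicate number as a block and the trend, 0 of all genes were called, so that fit cannot decide about LOX or LOXL3. With the trend, the adjusted p of LOX missed the threshold once its 3 probe sets were averaged. With every probe set of the array tested on its own, the lowest adjusted p in the collagen set was 0.152 in limma and 0.0602 with the trend.

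**Figure D2:**
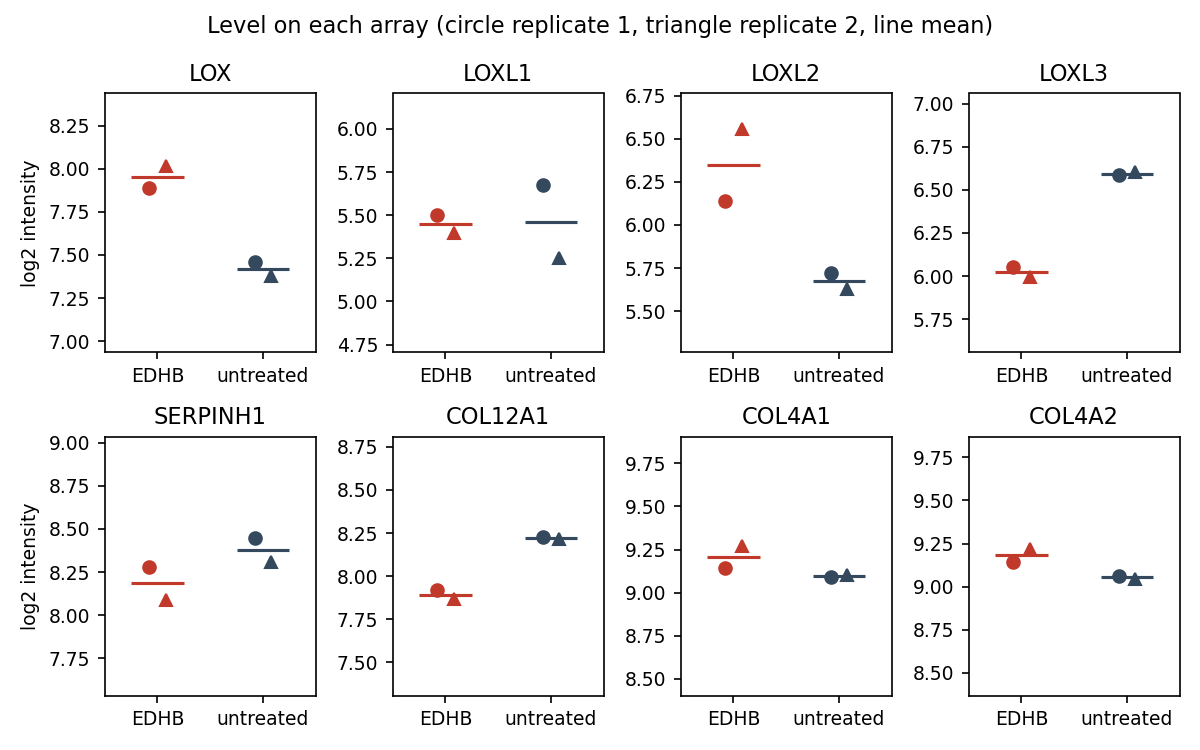
Log2 intensity on each array for 8 genes, EDHB left and untreated right, each panel spanning 1.5 log2 units around its own mean. Circles are replicate 1, triangles replicate 2 and lines the mean of 2 arrays. The groups are apart for LOX, LOXL2, LOXL3 and COL12A1, overlap for LOXL1, and differ by 0.11 and 0.13 for COL4A1 and COL4A2.

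SERPINH1, the chaperone of the collagen helix, had log2 levels of 8.28 and 8.09 in EDHB arrays, against 8.45 and 8.31 in untreated arrays. Both EDHB arrays were below both untreated ones, though by a small margin. Its change of -0.19 ± 0.10 (SE) did not pass (limma adjusted p = 0.430), and it was -0.17 and -0.22 within replicates 1 and 2. For BMP1, the difference was 0.03 ± 0.10 (SE), from levels of 5.73 and 5.51 with EDHB and 5.55 and 5.62 untreated, and the groups overlapped. Its 7 probe sets, which include forms of the transcript, gave changes between -0.04 and 0.16. PCOLCE had 4.93 and 5.15 in EDHB arrays, against 4.77 and 4.98 in untreated arrays, a difference of 0.16 ± 0.12 (SE) with overlapping groups.

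Collagen IV forms the network of basement membranes, and 4 of its 6 chains lay at or above the median probe set. COL4A1 had log2 levels of 9.15 and 9.27 in EDHB arrays, against 9.09 and 9.10 in untreated arrays. COL4A2, its partner in the helix and its neighbour across the shared promoter printed above, had 9.14 and 9.22 with EDHB and 9.06 and 9.04 untreated. For both genes the EDHB arrays lay above the untreated ones, by 0.11 ± 0.08 and 0.13 ± 0.08 (SE), and neither passed (limma adjusted p = 0.569 and 0.480). Their second probe sets gave 0.04 each, with replicate 2 at -0.03 for COL4A1 and -0.002 for COL4A2.

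COL4A5, the chain that is mutated in X-linked Alport syndrome, had log2 levels of 7.87 and 8.06 in EDHB arrays, against 7.59 and 7.77 in untreated arrays. The difference of 0.28 ± 0.11 (SE) was alike in both replicates (0.27 and 0.29), and the second probe set, below the median probe set, gave 0.28. It did not pass (limma adjusted p = 0.302). COL4A6, its head-to-head neighbour, had 8.49 and 8.58 in EDHB arrays, against 8.58 and 8.55 in untreated arrays, with overlapping groups and a difference of -0.04 ± 0.08 (SE). COL4A3 and COL4A4, the other chains of this family, lay below the median probe set. COL7A1, which forms the anchoring fibrils under squamous epithelia, had 6.98 and 7.37 in EDHB arrays, against 7.01 and 7.05 in untreated arrays. There the groups overlapped, and the difference was 0.15 ± 0.14 (SE).

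Among the collagens that associate with fibrils, COL12A1 had the smallest unadjusted p. It codes for the chain of collagen XII, which sits on the surface of collagen I fibrils. Its log2 levels were 7.92 and 7.86 in EDHB arrays, against 8.23 and 8.22 in untreated arrays, and the groups were apart. The change was -0.33 ± 0.07 (SE), a fold of 0.795, with -0.31 and -0.35 within replicates 1 and 2. It did not pass in limma (adjusted p = 0.158, and 0.0702 with the trend). All 5 probe sets were lower in both replicates, by means of -0.08 to -0.49, and 2 of them lay below the median probe set. Its promoter, printed above, held 2 motif matches.

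COL9A3, a chain of the cartilage collagen IX, had log2 levels of 5.02 and 4.74 in EDHB arrays, against 4.46 and 4.25 in untreated arrays. The untreated levels lay below the median probe set and carry no detection call, which leaves the size of the difference, 0.53 ± 0.13 (SE; limma adjusted p = 0.175), uncertain. COL20A1 differed by 0.25 ± 0.08 (SE), with levels of 4.94 and 4.85 with EDHB and 4.60 and 4.68 untreated, close to the median probe set. Its second probe set, below the median probe set, gave 0.01. For COL9A2 the levels were 4.49 and 4.49 with EDHB, below the median probe set, and 4.66 and 4.70 untreated, and its second probe set went the other way (0.23). COL16A1, made by many epithelial and connective tissue cells, had 6.81 and 6.78 in EDHB arrays, against 6.81 and 6.53 in untreated arrays, with overlapping groups.

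Of the 11 fibrillar chains, 4 lay at or above the median probe set, and 7 lay below it, among them COL1A2, COL3A1 and COL5A2. COL27A1, a fibrillar chain of cartilage, had log2 levels of 7.12 and 7.19 in EDHB arrays, against 6.60 and 7.02 in untreated arrays. Its EDHB arrays were above both untreated arrays, but the untreated arrays lay further apart than the EDHB ones. The change was 0.52 within replicate 1 and 0.18 within replicate 2, with a mean of 0.35 ± 0.15 (SE; limma adjusted p = 0.341). A second probe set gave 0.56 and 0.14, and another 0.51 and -0.08, so on 3 probe sets replicate 1 gave about the same value and replicate 2 a smaller one. The last 2, below the median probe set, gave 0.01 and -0.08 on the mean.

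COL1A1, the main chain of collagen I, gave opposite values on its probe sets. The brightest had log2 levels of 6.26 and 6.35 in EDHB arrays, against 6.38 and 6.49 in untreated arrays, and a change of -0.13 ± 0.09 (SE). Another gave 0.41, with 0.39 and 0.44 within replicates 1 and 2, and a further one gave 0.24. No direction is given for COL1A1, and averaged over its 5 probe sets the change was 0.11. Its partner chain COL1A2 had levels of 3.21 and 3.34 with EDHB and 3.31 and 3.33 untreated. COL5A1, which starts fibril assembly, differed by 0.11 ± 0.13 (SE), from 5.89 and 6.12 with EDHB and 5.78 and 6.01 untreated. COL11A2 had 5.38 and 5.18 with EDHB and 5.43 and 5.42 untreated.

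**Figure D3:**
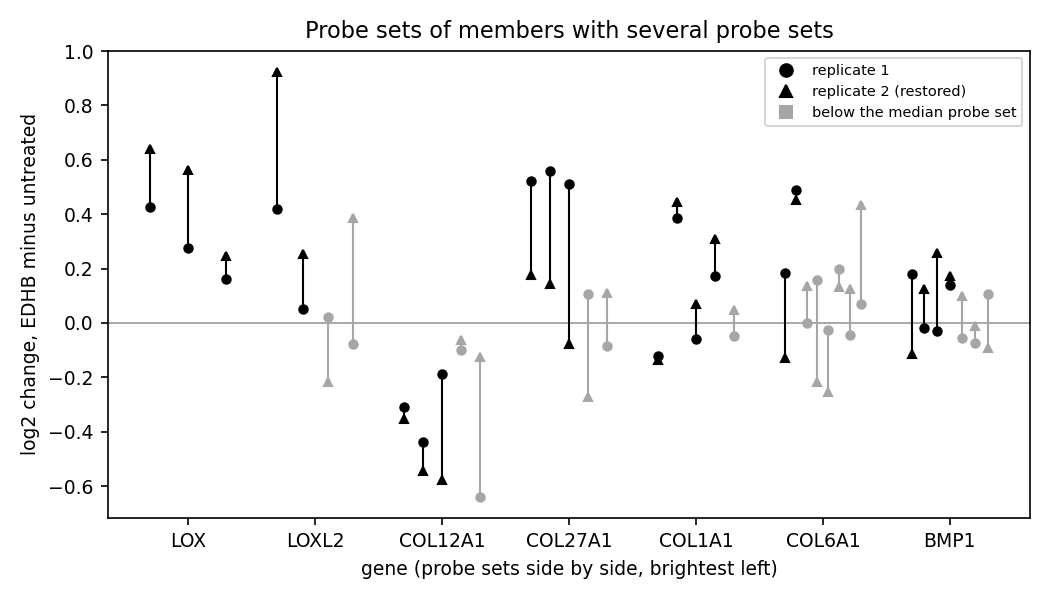
Log2 change (EDHB minus untreated) of each probe set of 7 genes, brightest left. Circles are replicate 1 and triangles replicate 2, joined by a line, and grey marks probe sets with a mean below the median probe set (4.54). The 3 probe sets of LOX lie above 0 and the 5 of COL12A1 below 0 in both replicates, whereas those of COL1A1 lie on both sides.

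The remaining chains at or above the median probe set belong to other families. COL6A1, of the beaded filaments around cells, had log2 levels of 5.96 and 5.63 in EDHB arrays, against 5.77 and 5.76 in untreated arrays. There the groups overlapped, with a difference of 0.03 ± 0.13 (SE). Another of its 8 probe sets had 4.71 and 4.85 in EDHB arrays, against 4.22 and 4.40 in untreated arrays, a difference of 0.47 ± 0.11 (SE) with the groups apart, and the mean over all 8 was 0.11. No direction is given for COL6A1. COL6A2 had 5.10 and 5.10 in EDHB arrays, against 5.17 and 4.82 in untreated arrays, and the groups overlapped. COL18A1, the source of endostatin, had 5.61 and 5.77 with EDHB and 5.67 and 5.44 untreated, also overlapping, and its second probe set gave 0.23 ± 0.13 (SE). The transmembrane chain COL13A1 differed by -0.03 ± 0.07 (SE), from 5.31 and 5.30 with EDHB and 5.33 and 5.35 untreated. Another of its probe sets was lower by 0.32 ± 0.13 (SE), with -0.23 and -0.42 within replicates 1 and 2, and the mean over its probe sets was -0.12. COL26A1 had 5.34 and 5.24 with EDHB and 5.51 and 5.35 untreated, with the nearest arrays of the groups almost level.

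The other 25 genes had levels between 1.01 and 4.65 on all arrays, with both group means below the median probe set, so no change is given for them as expression. They were COL1A2, COL2A1, COL3A1, COL5A2, COL5A3, COL11A1, COL24A1, COL4A3, COL4A4, COL8A1, COL8A2, COL10A1, COL9A1, COL14A1, COL19A1, COL21A1, COL22A1, COL6A3, COL6A5, COL6A6, COL23A1, COL25A1, COL15A1, COL28A1 and LOXL4. All 3 short chain genes were among them, which include the marker of hypertrophic cartilage COL10A1. COL5A2 and COL6A5 had an unadjusted p under 0.05. COL5A2 had log2 levels of 2.82 and 2.66 in EDHB arrays, against 3.19 and 3.05 in untreated arrays, and COL6A5 had 2.03 and 1.96 in EDHB arrays, against 2.34 and 2.28 in untreated arrays.

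The enzymes and partners that handle collagen before and after secretion were read from a list of 43 other genes, of which 41 were measured. Of these, 0 passed in limma over all genes, and 10 had an unadjusted p under 0.05 (24.4%, beside 16.8% of all genes). Of the 10, 7 were higher (17.1%, beside 8.81% of all genes) and 3 lower (7.32%, beside 7.98%). With the trend 2 rose and 0 fell (4.88%, beside 1.9% of all genes). The list was chosen with earlier results of these data known, so these shares cannot be read as an excess. The list held more bright genes than the array, with 31 of 41 at or above the median probe set against 12560 of 19751. The median log2 change over the 41 was 0.04. The 2 that rose with the trend, P4HA1 and P4HA2, are catalytic subunits of prolyl 4-hydroxylase. P4HA1 had log2 levels of 9.44 and 9.60 in EDHB arrays, against 8.61 and 8.63 in untreated arrays, a difference of 0.90 ± 0.09 (SE; limma adjusted p = 0.0763, and 0.0120 with the trend). P4HA2 had 9.67 and 9.64 in EDHB arrays, against 9.28 and 9.25 in untreated arrays, a difference of 0.39 ± 0.07 (SE; adjusted p = 0.139, and 0.0378 with the trend). For both the groups were far apart compared with the spread within them, where untreated levels were matched by the restoring step as for LOXL3. For each, 1 probe set below the median probe set did not show the rise, and averaged over probe sets the differences were 0.45 and 0.15. With the trend and probe sets averaged, 0 of the 41 were called, against 282 of all genes. With the trend and the replicate block, 0 of all genes were called, so that fit cannot decide about the 41. Without any 1 array, the change ran from 0.82 to 0.98 for P4HA1 and from 0.38 to 0.40 for P4HA2. P4HA3, another catalytic subunit, had 4.32 and 4.71 in EDHB arrays, against 4.84 and 4.45 in untreated arrays, with overlapping groups and a difference of -0.13 ± 0.19 (SE). P4HB, which pairs with these subunits, differed by 0.14 ± 0.09 (SE).

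The lysyl hydroxylases PLOD2 and PLOD1 were higher by 0.67 ± 0.15 and 0.28 ± 0.10 (SE), and PLOD3 differed by 0.05 ± 0.08. The prolyl 3-hydroxylase P3H1 was higher by 0.21 ± 0.07. SEC24D and MIA2, which serve the export of large procollagen cargo from the endoplasmic reticulum, were higher by 0.60 ± 0.21 and 0.39 ± 0.09, with 1 of the 3 other probe sets of MIA2 going the other way. None of these passed an adjusted p in limma with or without the trend. The procollagen N-proteinases ADAMTS2 and ADAMTS3 and the collagen receptor DDR2 were lower by unadjusted p, with group means below the median probe set.

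**Figure D4:**
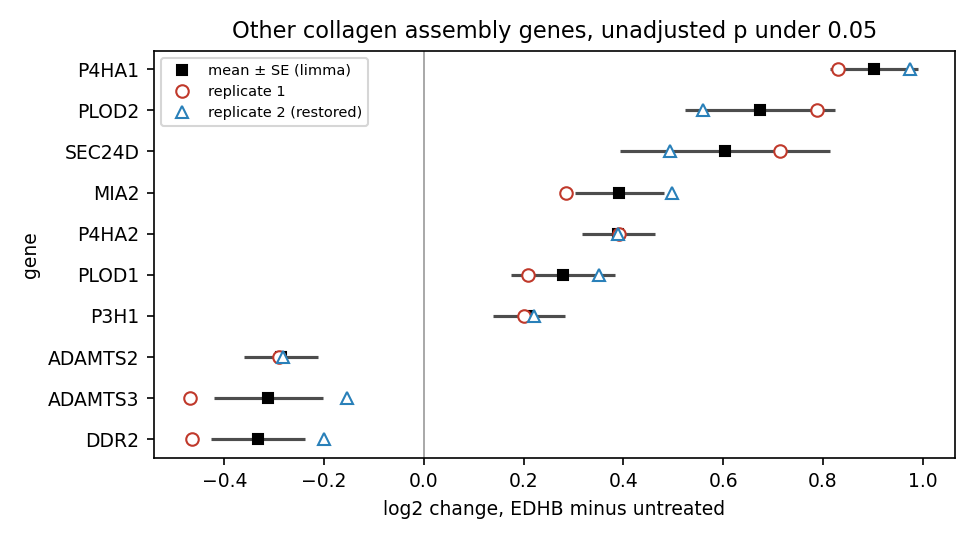
Log2 change (EDHB minus untreated) of the 10 other collagen assembly genes with an unadjusted p under 0.05. Squares are means with the limma standard error, circles replicate 1 and triangles replicate 2. P4HA1 lies at 0.90 and PLOD2 at 0.67, and ADAMTS2, ADAMTS3 and DDR2 lie below 0.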

How the data were processed

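Affymetrix 3' arrays were hybridised with biotin-labelled RNA from 2 EDHB and 2 untreated samples. The authors deposited 1 table of linear intensity values (1.55 to 13393), which the submitters' processing notes credit to RMA; version and genome build are not given in the sources used here. This step makes array distributions equal, and median intensity lay between 23.3 and 23.5.

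The table held 54613 probe sets. Replicate 2 columns followed an inferred layout in which 148 higher (at least 2-fold) and 45 lower values precede 54419 in identifier order. Identities were recovered by a forward-backward alignment on log2 untreated levels (t density, scale 0.15, 3 degrees of freedom), keeping a posterior of at least 0.95 (54463 probe sets). The alignment favoured untreated values close to those of replicate 1, so the untreated spread that enters limma is not independent of it. The median absolute log2 difference over restored probe sets was 0.125 for the untreated and 0.113 for the EDHB arrays. The correlation of the EDHB arrays across probe sets was 0.418 as deposited and 0.997 restored, a weak check, since EDHB levels follow untreated ones.

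Probe sets were named by platform annotation (41091 with 1 gene, 1801 with several, 11721 with none listed), with symbols and coding status from RefSeq. A gene's value is that of the brightest of its restored probe sets, and other probe sets are given for some genes. Levels are log2 with no pseudocount. EDHB was compared with untreated by limma 3.58.1 in R 4.3.3 (lmFit, eBayes, Benjamini-Hochberg over 19751 genes, threshold 0.05, 2 residual and 2.99 prior degrees of freedom). The alternatives were the intensity trend, the replicate block, leaving out arrays, averaging probe sets, leaving out dim genes, centring, cyclic loess and a posterior of 0.5. Named genes were all members at or above the median probe set in a group, with the rest named as below it, and other assembly genes with an unadjusted p under 0.05. P4HA3, P4HB and PLOD3 were named after their values were seen. Members and lists were chosen with earlier results of these data known.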

Additional observations from a re-analysis of the deposited data

How the results depend on the processing

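The count of 0 of 51 collagen set genes stayed at 0 with the mean of probe sets, centred arrays, cyclic loess, and each probe set on its own with the trend. It was also 0 with the replicate block (with or without the trend), a posterior of 0.5, and each probe set on its own without the trend. There 0 of all genes were called, so these fits cannot decide about the collagen set. The count was 2 with the trend or without dim genes (LOX and LOXL3 both times). Fits without any 1 array keep only 1 array in a group, so their counts are not given. Combined with the trend after the data were seen, the collagen set count was 1 with the mean of probe sets (LOXL3). It was 4 with centring, with cyclic loess or without dim genes (COL12A1 and LOXL2 added). Over all genes the count was 2 (2 higher, 0 lower), 375 with the trend (211 higher, 164 lower), 37 with the mean of probe sets, 426 without dim genes, 56 centred (35 and 21) and 43 with cyclic loess (31 and 12). It was 0 with the replicate block, with a posterior of 0.5 and with each probe set on its own. With the trend it became 145 for each probe set on its own, 282 with the mean of probe sets, 994 centred (460 and 534), 1028 with loess (573 and 455), 1115 without dim genes and 0 with the block. The other assembly genes gave 0, 2 with the trend or without dim genes, and 1 when centred or with loess. They gave 1 for each probe set with the trend, and 3 with the trend and centring, loess or no dim genes. In the rest of these fits they gave 0, among them the trend with the block or with the mean of probe sets. Where 0 of all genes were called, that 0 was fixed in advance. The median of the collagen set was 0.01, 0.048 with the mean of probe sets, 0.11 without dim genes, -0.021 with arrays centred and -0.003 to 0.03 without 1 array. The value without dim genes covers only the bright members and cannot be read as a shift of the set. Over all genes at or above the median probe set in a group, the median was 0.0058.

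Of 36 single genes, 10 results passed the threshold in an alternative only. Signs turned for COL1A1 (0.11) and COL9A2 (0.021) with the mean of probe sets, and for COL6A1 with arrays centred (-0.0048). Without 1 array, ranges that crossed 0 were -0.080 to 0.15 for BMP1, -0.016 to 0.26 for COL16A1, -0.084 to 0.0078 for COL4A6, -0.0050 to 0.22 for COL5A1, -0.14 to 0.19 for COL6A1, -0.069 to 0.28 for COL6A2, -0.046 to 0.34 for COL7A1 and -0.23 to 0.20 for LOXL1. None of these was called, and the cause was not tested. Same-numbered arrays shared deviations across genes (correlation 0.21), which with 2 pairs does not establish pairing. Low levels and 2 arrays per group limit what could be seen, and restored values rest on an inferred layout.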
